A study of Rattus norvegicus with 32 samples.

Results

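The difference between lactating and control rats was compared between the first and the last segment of the small intestine. A total of 16 arrays of the 32 in the series were used, those of duodenum and ileum, in 4 groups of 4 pools: lactating duodenum, control duodenum, lactating ileum and control ileum. Lactating Sprague-Dawley rats were taken at day 10 to 11 of lactation, at hour 16 by the labels, and controls were age-matched virgins. Each pool holds RNA of 4 rats, and the same rats went into the duodenal and the ileal array of a pool, so that the duodenum minus ileum difference was available within each pool. The study's methods describe scraped mucosa, whereas the labels speak of homogenates of the segments. The arrays were Affymetrix Rat Exon 1.0 ST, read as RMA log2 values for 19434 transcript clusters, where 1 unit is a doubling. For each cluster the contrast was (lactating minus control in duodenum) minus (lactating minus control in ileum), fitted in limma with a random block for pools. The threshold for a call was an adjusted p of 0.05 (Benjamini-Hochberg, over the 19434 clusters).

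As background, the duodenum receives gastric acid, bile and pancreatic juice and is the main site of active uptake of calcium and iron, and phosphate and other minerals are also taken up along the upper intestine. The ileum reclaims bile acids, releases the hormone Fgf19 in answer to them, and carries more lymphoid tissue and more Paneth and goblet cells. During lactation rats eat far more and lose large amounts of minerals and lipid to milk, and the intestinal mucosa grows.

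Region markers were compared between the segments. Slc10a2, the ileal bile acid carrier, lay at 6.80 to 7.22 in lactating duodenum and 6.30 to 6.55 in control duodenum, and at 12.36 to 12.88 in lactating ileum and 12.21 to 12.70 in control ileum. Cybrd1, a duodenal iron reductase, lay at 11.72 to 12.06 in lactating duodenum and 11.32 to 11.56 in control duodenum, and no ileal array passed 7.93. Fabp6, the ileal bile acid binding protein, was at 7.33 and 6.47 in duodenal pools 1 and 2 of lactating rats and at 5.73 in control pool 1, against 3.63 to 4.20 in the other duodenal arrays. Gata4, a factor of the upper intestine, varied among ileal pools, with 5.39 in lactating pool 3 as the lowest and 8.01 in control pool 2 as the highest. Sct, encoding secretin of the upper intestine, ran against its place on the duodenal marker list, with means of 8.85 in lactating and 8.15 in control duodenum and 9.54 in lactating and 8.85 in control ileum. Cubn, an ileal vitamin B12 receptor, overlapped between the segments, with 9.46 in pool 4 of lactating duodenum and 6.54 in pool 3 of lactating ileum. Enterocyte markers had like means in both states, at 12.57 to 12.65 in lactating duodenum, 12.57 to 12.68 in control duodenum, 11.94 to 12.16 in lactating ileum and 11.96 to 12.05 in control ileum. In mucosal scrapes, fewer cells of a type and less RNA per cell cannot be told apart.

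The effect of lactation differed between duodenum and ileum for 52 clusters (0.268% of those tested), with 24 (0.123%) higher in the duodenum and 28 (0.144%) lower. Of these, 46 carried exactly 1 gene symbol. In 30 clusters the difference between states was called in the duodenum alone, in 15 it was called in the ileum alone, in 7 in neither segment and in 0 in both. When the segment calls were taken from the fit with the replicate number of the pools as a block, these became 32, 16, 2 and 2. Without the block, the named duodenal changes were 9 rises and 18 falls, and the named ileal changes were 8 falls and 6 rises. Among the 30 clusters called in the duodenum alone, 27 had the higher mean level in the duodenum, and among the 15 called in the ileum alone, 13 had the higher mean level in the ileum. Where the contrast was not called, these counts were 15 of 35 for the duodenum alone and 80 of 125 for the ileum alone. The mean level was taken over both states, so a change within a segment enters it. A cluster near the low end in 1 segment can hardly fall there, so level and segment are tied in part. The 30 also include the 13 called acinar genes given below, which followed the same order of groups and are not separate observations. These counts were not tested. Over all clusters, lactating minus control was called for 81 in the duodenum (0.417%; 44 higher, 0.226%, and 37 lower, 0.19%) and for 156 in the ileum (0.803%; 69 higher, 0.355%, and 87 lower, 0.448%). After quantile normalization over the 16 arrays the duodenal split was 39 higher and 58 lower. Both segments were called for 16 clusters, each in the same direction, and for 0 of these was the contrast called. The median contrast over all clusters was 0.04. With the replicate number of the pools as a block, the contrast was called for 17 clusters, 15 of them among the 52, while lactating minus control was called for 498 clusters in the duodenum and 1128 in the ileum. That fit kept the random block for pools beside the replicate terms. Its consensus correlation within pools was -0.159, against 0.251 without the replicate terms. When the 8 within-pool differences were used in place of the random block, 16 clusters were called, 14 of them among the 52. The named genes that kept their call with the replicate block were Slc34a2, Trpm6, Slc52a3, Lypd3, Slc39a10, Slc30a2, Has2, Dclk1, Asap1, Ldlrad3, Rnase1, Klk1b3, Dmbt1 and Testin.

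**Figure D1:**
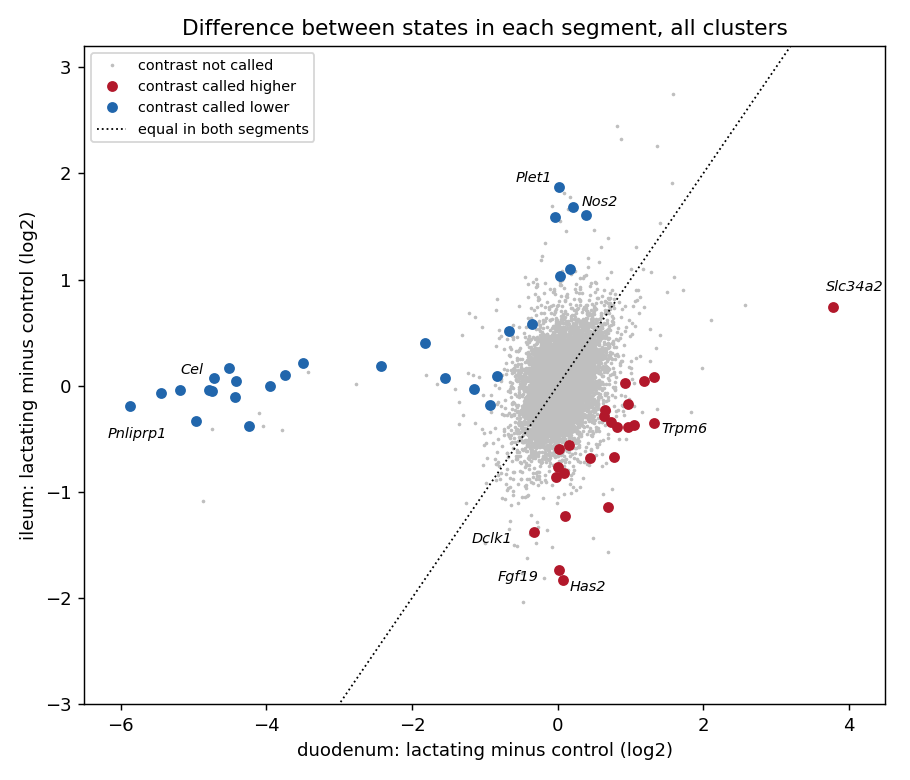
Lactating minus control (log2) in the duodenum on the x axis and in the ileum on the y axis, 1 point per cluster, with the 24 clusters whose contrast was called higher in red, the 28 called lower in blue and the dotted line marking equal differences. Most called clusters lie near 1 of the axes, with Pnliprp1 at -5.88 in the duodenum and Slc34a2 at 3.78.

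**Figure D2:**
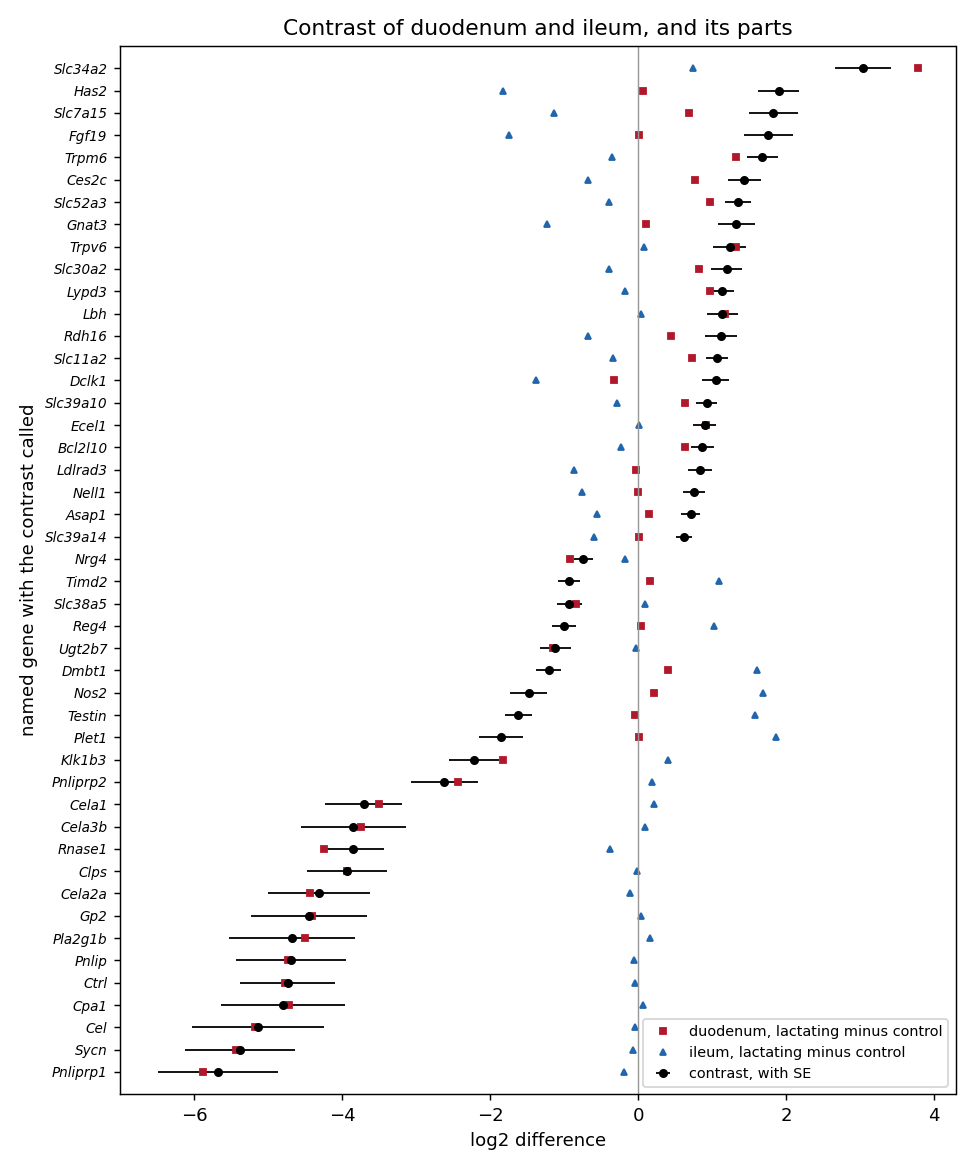
The 46 named genes with the contrast called, as log2 differences: the contrast with its standard error (black), lactating minus control in the duodenum (red) and in the ileum (blue). The contrasts run between -5.68 for Pnliprp1 and 3.04 for Slc34a2.

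Secreted enzymes of the exocrine pancreas made up the largest falls. The acinar cells of the pancreas make lipases, proteases and their cofactors, and in the rat pancreatic tissue lies against the duodenum. Of 38 listed pancreatic acinar genes, 27 had a named cluster, and the contrast was called lower for 13 and higher for 0. In the duodenum 18 of the 27 fell, and in the ileum 0 passed in either direction (limma, also 0 at an unadjusted p under 0.05). The median over the 27 genes was -3.71 for the contrast, -3.79 in the duodenum and -0.02 in the ileum. Lactating and control duodenum did not overlap for 21 of the 27 genes, against 5.78% of all clusters, and in the ileum they overlapped for all 27, where 7.51% of all clusters did not.

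Promoters of 3 of these genes are shown, chosen because they are the ones that held both motifs searched, among 10 with a window. The motifs were searched because acinar enzyme genes are known in the mouse and rat to share binding sites for the Ptf1 complex, which reads an E-box beside a TC-box. The search took each motif anywhere in a window, without regard to their spacing or orientation. Of the 3 windows, only that of Cela1 holds them within a few bases of each other. Each window covers 250 bases before and 50 after the annotated start (RefSeq, GRCr8), 5′ to 3′ on the gene's strand. Capitals mark CACCTG, an E-box, and TTTCCC, a TC-box, each on either strand and without overlap here. The 3 windows lie at chr3:32288970-32289269 (Cel, minus strand), chr7:133665012-133665311 (Cela1, minus strand) and chr5:154920284-154920583 (Cela3b, minus strand).
Cel: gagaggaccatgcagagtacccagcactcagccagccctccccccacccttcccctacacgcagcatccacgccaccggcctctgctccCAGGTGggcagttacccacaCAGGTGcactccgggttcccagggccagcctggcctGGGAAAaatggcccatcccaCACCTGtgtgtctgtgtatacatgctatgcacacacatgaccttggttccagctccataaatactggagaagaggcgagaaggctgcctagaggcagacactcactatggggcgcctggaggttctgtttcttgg
Cela1: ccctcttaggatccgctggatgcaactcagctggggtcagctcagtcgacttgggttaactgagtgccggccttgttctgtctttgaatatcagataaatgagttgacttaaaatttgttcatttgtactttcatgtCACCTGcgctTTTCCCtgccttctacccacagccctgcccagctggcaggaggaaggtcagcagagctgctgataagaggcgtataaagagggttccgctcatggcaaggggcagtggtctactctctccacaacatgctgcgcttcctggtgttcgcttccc
Cela3b: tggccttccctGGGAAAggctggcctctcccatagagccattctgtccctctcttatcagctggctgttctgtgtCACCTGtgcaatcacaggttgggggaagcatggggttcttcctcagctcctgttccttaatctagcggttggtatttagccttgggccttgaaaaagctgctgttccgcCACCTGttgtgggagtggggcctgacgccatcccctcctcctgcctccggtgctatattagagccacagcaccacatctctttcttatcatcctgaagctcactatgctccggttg
CACCTG occurred in 18.8% and TTTCCC in 25.1% of all 33469 windows, and both in 4.38%. Of the 13 called acinar genes, 10 had a window, and CACCTG occurred in 5 (Cel, Cela1, Cela3b, Ctrl, Pnliprp1), TTTCCC in 5 (Cel, Cela1, Cela3b, Pla2g1b, Pnlip) and both in 3, while Cpa1, Gp2 and Pnliprp2 held neither. A match is a description of the letters and not a binding site.

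Pnliprp1, a relative of pancreatic lipase, was at 3.94, 7.73, 5.02 and 3.39 in lactating duodenum and at 10.83, 10.15, 11.34 and 11.27 in control duodenum. Both ileal groups stayed at the low end, between 2.90 and 3.14 in lactating and between 3.08 and 3.31 in control pools. The contrast was -5.68 ± 0.81 (SE; limma adjusted p = 0.00602), from -5.88 in the duodenum and -0.19 in the ileum. Lactating pool 2 was the highest of its group, as it was for each of the 13 called genes of the list. Cel, the bile salt activated lipase whose promoter is given above, was at 5.47, 9.56, 7.0 and 4.78 in lactating duodenum and at 11.99, 11.16, 12.31 and 12.07 in control duodenum. Its ileal values lay between 3.86 and 4.40 in lactating and between 3.89 and 4.51 in control pools. The contrast was -5.14 ± 0.89 (adjusted p = 0.0236). Elastase 1, encoded by Cela1, was at 6.88, 8.77, 7.32 and 6.27 in lactating duodenum and at 10.76, 10.00, 11.60 and 10.86 in control duodenum, so that the groups did not overlap. Its contrast was -3.71 ± 0.52 (adjusted p = 0.00456), while in the ileum both states lay between 5.90 and 6.81.

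The other called acinar enzymes followed the same order of groups. They were Sycn (zymogen granule protein, -5.38), Cpa1 (carboxypeptidase, -4.80), Ctrl (chymotrypsin-like, -4.74), Pnlip (triglyceride lipase, -4.69), Pla2g1b (phospholipase, -4.68), Gp2 (zymogen granule membrane, -4.45), Cela2a (elastase, -4.32), Clps (colipase, -3.93), Cela3b (elastase, -3.85) and Pnliprp2 (lipase relative, -2.62). Rnase1, the pancreatic ribonuclease, which was not on the list, was at 3.83, 5.39, 4.10 and 4.19 in lactating duodenum and at 8.86, 7.64, 9.23 and 8.74 in control duodenum. Its contrast of -3.86 ± 0.42 had the smallest adjusted p of these genes (0.00215). Klk1b3, of the tissue kallikrein family, had a contrast of -2.22 ± 0.34 (adjusted p = 0.00993).

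Other acinar enzymes fell in the duodenum without the contrast being called. Cpb1 had a contrast of -4.34 (adjusted p = 0.0882) and Ctrb1 of -3.37 (adjusted p = 0.174), both with a called fall in the duodenum. Prss1, or trypsinogen, was at 7.79, 10.99, 8.41 and 4.57 in lactating duodenum and at 12.60, 11.29, 12.67 and 11.58 in control duodenum, which was not called (contrast -3.84, adjusted p = 0.339). Highly abundant enzymes came near the top of the table's range of 0.88 to 14.41 in control duodenum. The transcription factors of acinar cells, Ptf1a (contrast 0.02), Rbpjl (-0.04) and Bhlha15 (-0.17), were not called in either segment. Islet genes were not called either (limma, 0 of 8 measured in both segments, 2 of 8 at an unadjusted p under 0.05 in each), with Ins1 at 4.88, 5.07, 5.11 and 4.18 in lactating duodenum and at 6.53, 5.26, 7.29 and 5.42 in control duodenum.

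Calls of the acinar genes depended on the fit. Without lactating pool 2 the adjusted p of Cel was 3.37e-05, and over all fits without 1 pool it reached 0.131. Cel, Cpa1, Cela3b, Gp2 and Pla2g1b passed only in the fit without lactating pool 2, Cela2a in 2 of 8 such fits, and Pnlip and Pnliprp2 in 3 of 8. Pnliprp1, Sycn, Ctrl, Clps, Cela1 and Rnase1 passed in all 8, and Klk1b3 lost its call without control pool 1 and without lactating pools 3 and 4 (highest adjusted p = 0.0644). With the replicate block the 13 listed genes had adjusted p between 0.0669 and 0.231, Rnase1 0.0445 and Klk1b3 0.0498.

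**Figure D3:**
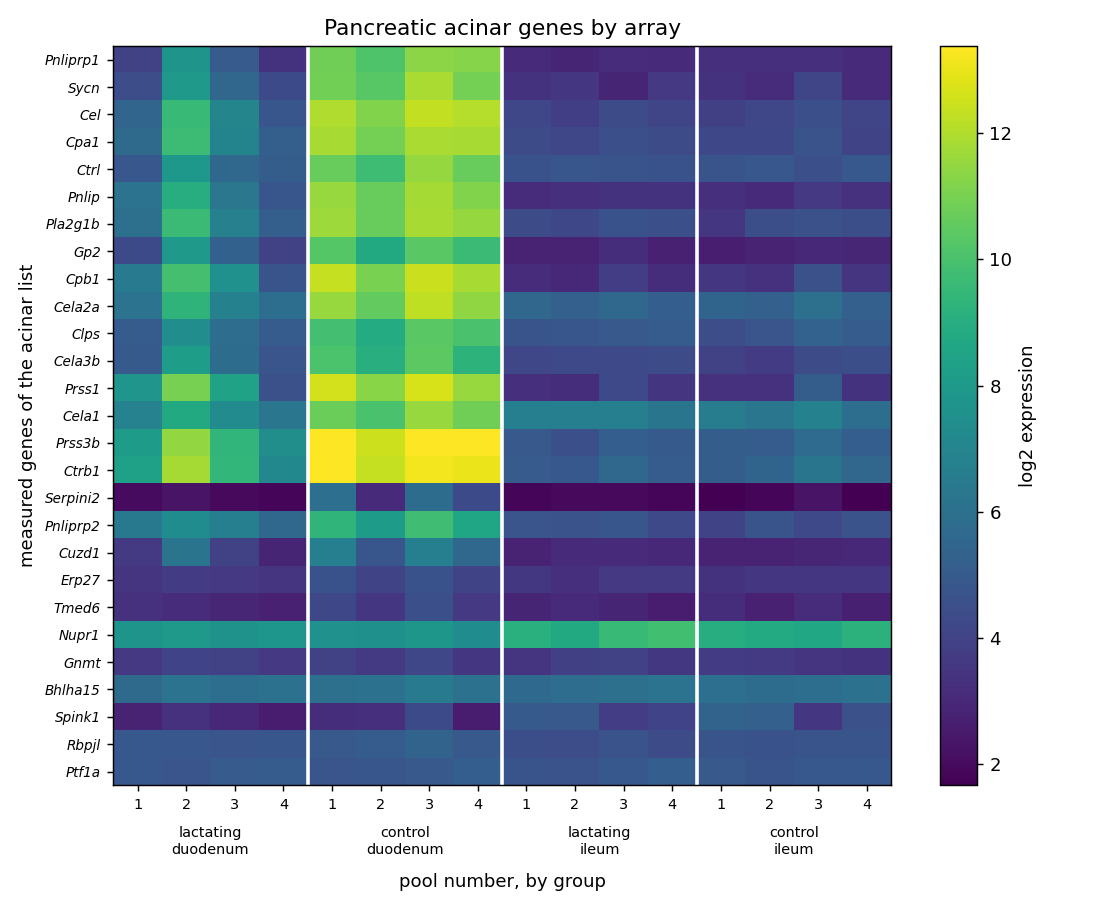
Log2 expression of the 27 measured pancreatic acinar genes (rows, ordered by contrast) in the 16 arrays (columns, pools 1 to 4 of each group). For 21 of the 27 genes lactating and control duodenum do not overlap, with pool 2 the brightest of the lactating pools, and the ileal arrays are uniformly dim for the enzymes.

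Averaged over the 27 pancreatic acinar genes, the arrays stood at 5.305, 7.450, 5.871 and 4.786 in lactating duodenum and at 9.075, 8.227, 9.404 and 8.754 in control duodenum. The ileum stood at 4.255 to 4.459 in lactating and 4.268 to 4.586 in control pools. This list therefore moved with state in every duodenal comparison given here. Its part in the other duodenal differences was not tested. Tff2, a trefoil peptide of the stomach and of Brunner glands, fell beside it in the duodenum, with 6.17, 6.10, 6.04 and 6.15 in lactating and 7.89, 6.77, 7.63 and 6.88 in control pools (-1.18, adjusted p = 0.0137). Its contrast of -1.16 was not called (adjusted p = 0.0882). It was the 1 called in the duodenum of 13 measured stomach and Brunner gland genes, whose mean level was 4.64 to 4.88 in lactating and 4.57 to 4.92 in control duodenum. Their part in the acinar differences was not tested.

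Among the 9 named genes that rose in the duodenum and had a called contrast were carriers and channels for minerals and vitamins. Rises in the duodenum without a called contrast included Nts, or neurotensin (1.84, adjusted p = 0.0257), Scd2, a fatty acid desaturase (1.57, adjusted p = 0.009), and Hmox1, or heme oxygenase (1.41, adjusted p = 0.0047). Slc34a2, the sodium phosphate cotransporter of the apical membrane, was at 10.43, 11.12, 10.95 and 11.47 in lactating duodenum and at 6.66, 7.67, 7.46 and 7.05 in control duodenum. In the ileum it was at 4.63, 5.80, 4.71 and 4.18 in lactating and at 4.01, 3.96, 4.27 and 4.13 in control pools. Lactating pools lay more than 2 log2 units above control pools in the duodenum, and none of the ileal arrays reached the duodenal range. The rise was 3.78 in the duodenum, or 13.8-fold, and 0.74 in the ileum (adjusted p = 0.332), and the contrast was 3.04 ± 0.38 (adjusted p = 0.00446). It was the 1 called gene of 10 measured phosphate transporters; the kidney cotransporters Slc34a1 (contrast 0.03) and Slc34a3 (0.02) were near the low end everywhere.

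Trpm6, a magnesium channel, was at 7.59, 8.19, 7.87 and 8.17 in lactating duodenum and at 6.46, 6.83, 6.49 and 6.74 in control duodenum. Its ileal values were 7.82, 7.80, 7.26 and 7.53 in lactating and 8.11, 8.11, 7.62 and 7.98 in control pools. Duodenal groups were apart, and ileal groups overlapped with the lactating pool the lower at each pool number. The ileal difference of -0.35 was not called (adjusted p = 0.405; 0.116 with the replicate block). The contrast was 1.68 ± 0.21 (adjusted p = 0.0042), and Trpm6 was the only named gene whose contrast passed under all 19 alternatives. Trpv6, the apical calcium channel, was at 11.23, 11.13, 11.46 and 11.46 in lactating duodenum and at 9.65, 10.15, 10.24 and 9.97 in control duodenum. In the ileum it lay between 4.39 and 5.30 in lactating and between 4.42 and 4.63 in control pools, near the array medians of 4.74 to 4.87. Its contrast of 1.24 ± 0.22 (adjusted p = 0.0281) passed only without lactating pool 3 among the fits without 1 pool (up to 0.156) and not with the replicate block (0.0673).

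**Figure D4:**
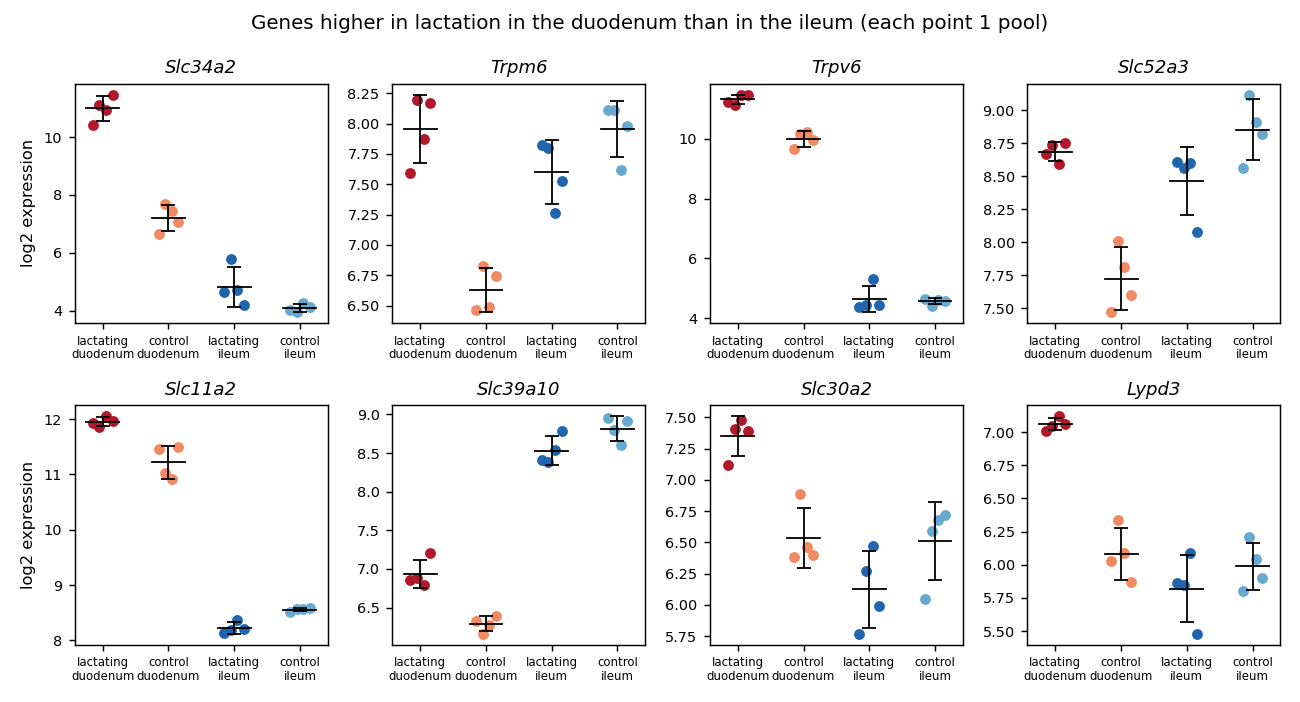
Log2 expression of 8 called genes in the 4 groups, each point 1 pool, with the mean (line) and SD (bars). In the duodenum all 8 genes lie higher in lactating than in control pools, with Slc34a2 between 10.43 and 11.47 against 6.66 to 7.67.

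On the calcium list Trpv6 rose in the duodenum and S100g in the ileum, and of these 2 only Trpv6 had a called contrast. Besides Trpv6, S100g, the cytosolic calcium carrier calbindin-D9k, lay between 13.24 and 13.58 in lactating duodenum and between 13.10 and 13.52 in control duodenum, near the top of the table's range. The ileal values were 11.13, 9.55, 10.92 and 10.55 in lactating and 9.44, 8.72, 8.27 and 8.47 in control pools. S100g rose in the ileum (1.81, adjusted p = 0.00687), but its contrast of -1.73 was not called (adjusted p = 0.052). Of 24 measured calcium and vitamin D genes, the contrast was called higher for 1 and lower for 0. The vitamin D receptor Vdr (contrast 0.17) and the basolateral calcium pump Atp2b1 (0.21) were not called in either segment.

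Metal carriers also differed between segments. Of 28 measured zinc and copper handling genes the contrast was called higher for 3 and lower for 0, and of 24 iron handling genes for 2 and 0, with Slc39a14 on both lists. Slc11a2, the proton coupled iron importer, was at 11.92, 11.86, 12.05 and 11.97 in lactating duodenum and at 11.46, 11.02, 10.91 and 11.49 in control duodenum. In the ileum it was at 8.13, 8.19, 8.37 and 8.20 in lactating and at 8.52, 8.56, 8.57 and 8.58 in control pools. Groups were apart in both segments and in opposite directions. The duodenal rise of 0.73 was called, the ileal difference of -0.34 was not (adjusted p = 0.23), and the contrast was 1.07 ± 0.15 (adjusted p = 0.00456; 0.0669 with the replicate block).

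Slc39a10, a zinc importer of the plasma membrane, was at 6.85, 6.88, 6.79 and 7.20 in lactating duodenum and at 6.33, 6.16, 6.27 and 6.39 in control duodenum. Its ileal values were 8.41, 8.39, 8.54 and 8.79 in lactating and 8.95, 8.80, 8.60 and 8.92 in control pools. The contrast was 0.93 ± 0.14 (adjusted p = 0.00773). Slc39a14, which imports zinc and iron, differed on the ileal side, with 8.72, 8.53, 8.56 and 8.58 in lactating and 9.25, 9.26, 9.09 and 9.17 in control ileum. In the duodenum its states differed by 0.02, and the contrast was 0.62 ± 0.11 (adjusted p = 0.0281; passed without lactating pool 2 only, up to 0.149, and 0.103 with the replicate block). Slc30a2, a zinc transporter that fills vesicles, was at 7.12, 7.41, 7.48 and 7.39 in lactating duodenum and at 6.38, 6.89, 6.46 and 6.40 in control duodenum. It was not called within either segment, while its contrast of 1.20 ± 0.21 was (adjusted p = 0.0244; 3 of 8 fits without 1 pool, up to 0.131). By contrast Slc39a4, the main dietary zinc importer, rose in both segments, by 0.93 in the duodenum and 0.75 in the ileum, and its contrast of 0.18 was not called.

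Slc52a3, the intestinal riboflavin carrier, was at 8.67, 8.74, 8.59 and 8.75 in lactating duodenum and at 7.47, 8.01, 7.81 and 7.60 in control duodenum. The ileal values were 8.61, 8.56, 8.60 and 8.08 in lactating and 8.56, 9.12, 8.91 and 8.82 in control pools. Lactating duodenum thus came up to the ileal range, and the contrast was 1.35 ± 0.18 (adjusted p = 0.00456), the 1 called of 21 vitamin transporters. Lypd3, a surface protein of the Ly6 family, was at 7.01, 7.05, 7.12 and 7.06 in lactating duodenum and at 6.03, 6.34, 6.09 and 5.87 in control duodenum, with a contrast of 1.14 ± 0.16 (adjusted p = 0.00456). Slc52a3 and Lypd3 kept their calls in all fits without 1 pool and with the replicate block. Lbh, a transcription cofactor (contrast 1.14), and Ecel1, an endothelin converting enzyme relative (0.90), also rose in the duodenum alone. Lbh passed only without lactating pool 2 among the fits without 1 pool (up to 0.147), and Ecel1 in 3 of 8 (up to 0.131). With the replicate block the adjusted p was 0.127 for Lbh and 0.138 for Ecel1.

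Genes with a called contrast and neither segment called were Slc7a15, an amino acid carrier (1.83), Ces2c, a carboxylesterase (1.44), Slc30a2 (1.20), Rdh16, a retinol dehydrogenase (1.12) and Bcl2l10, of the Bcl2 family (0.87). In each of these the mean was higher in lactating than in control duodenum and lower in lactating than in control ileum. With the replicate block a segment was called for 3 of them, the duodenum for Slc30a2 (adjusted p = 0.00453) and Bcl2l10 (0.0432) and the ileum for Slc7a15 (0.0296). Ces2c was at 9.18, 9.76, 9.38 and 9.74 in lactating duodenum and at 8.93, 8.63, 8.82 and 8.59 in control duodenum, and at 5.92, 6.48, 6.39 and 6.67 in lactating ileum and 7.26, 6.96, 6.63 and 7.28 in control ileum. It passed in all 8 fits without 1 pool, whereas Rdh16 passed in 1, and Bcl2l10 and Slc7a15 in 2 each (highest adjusted p 0.204 for Rdh16, 0.166 for Bcl2l10 and 0.131 for Slc7a15). With the replicate block the adjusted p was 0.129 for Ces2c, 0.193 for Slc7a15, 0.309 for Rdh16 and 0.297 for Bcl2l10. Rdh16 (2.45 to 4.37 over the 16 arrays) and Bcl2l10 (2.92 to 3.97) lay below the array medians of 4.74 to 4.87.

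Of the 37 clusters that fell in the duodenum, 18 were pancreatic acinar genes of the list and 19 were not, Tff2 and Klf9 among these 19. The 19 also hold the pancreatic ribonuclease Rnase1 (-4.24), Klk1b3 and clusters without exactly 1 symbol. The count therefore does not separate pancreatic from other genes. Of the 19, those with a called contrast further included Ugt2b7, Nrg4 and Slc38a5. Ugt2b7, a glucuronosyltransferase, was at 8.87, 8.81, 8.76 and 8.34 in lactating duodenum and at 10.36, 9.59, 9.72 and 9.72 in control duodenum, and between 2.90 and 3.36 over both ileal groups. Its contrast was -1.12 ± 0.21 (adjusted p = 0.0325). Nrg4, a ligand of the Erbb4 receptor, had a contrast of -0.74 (adjusted p = 0.0234), and Slc38a5, a neutral amino acid carrier, of -0.93 (adjusted p = 0.0293). Slc38a5 lay at 2.67 to 3.04 in lactating and 3.22 to 3.98 in control duodenum, below the array medians of 4.74 to 4.87. All 3 lost their call with the replicate block (0.0669, 0.206 and 0.137) and in most fits without 1 pool: Ugt2b7 passed only without lactating pool 2 and Slc38a5 only without control pool 2 (up to 0.149 and 0.15), and Nrg4 in 2 of 8. Probes of families such as Ugt2b, Cela and Reg can bind transcripts of close relatives, which was not tested.

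Among the genes with a called contrast, Has2 and Fgf19 fell furthest in the ileum. Has2, which makes hyaluronan, was at 4.42, 4.71, 4.71 and 5.23 in lactating duodenum and at 4.61, 4.64, 4.54 and 5.01 in control duodenum. In the ileum it was at 6.55, 6.82, 6.39 and 6.08 in lactating and at 7.75, 8.48, 8.14 and 8.78 in control pools. The duodenal groups overlapped and the ileal groups were apart. The ileal difference was -1.83 and the contrast 1.90 ± 0.28 (adjusted p = 0.00744; 0.0381 with the replicate block). Has2 was the 1 called gene of 48 measured collagens and matrix genes.

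Fgf19, the hormone by which the ileum restrains hepatic bile acid synthesis, lay between 3.54 and 3.99 in lactating duodenum and between 3.48 and 4.04 in control duodenum. These duodenal values lay below the array medians of 4.74 to 4.87, where a fall could hardly be seen. Ileal values were 10.07, 9.07, 8.81 and 9.08 in lactating and 10.58, 10.88, 11.73 and 10.80 in control pools, without overlap. The fall in the ileum was -1.74, a ratio of 0.30, and the contrast was 1.76 ± 0.33 (adjusted p = 0.0316). It passed in 2 of 8 fits without 1 pool (without control pool 1 and without lactating pool 1; highest adjusted p = 0.179) and not with the replicate block (0.241). Of 15 measured bile acid transport and Fxr genes the contrast was called for Fgf19 alone, and 4 passed at an unadjusted p under 0.05 (limma). In the ileum 3 of the 15, Fgf19 among them, were called lower and 0 higher, and 7 passed without adjustment. Slc10a2 rose in the duodenum, by 0.67 (adjusted p = 0.0417), at the low level given above, and its contrast of 0.48 was not called. Slc51a, the basolateral bile acid carrier, had a contrast of -0.05, and Fabp6 of 0.82 (adjusted p = 0.85).

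**Figure D5:**
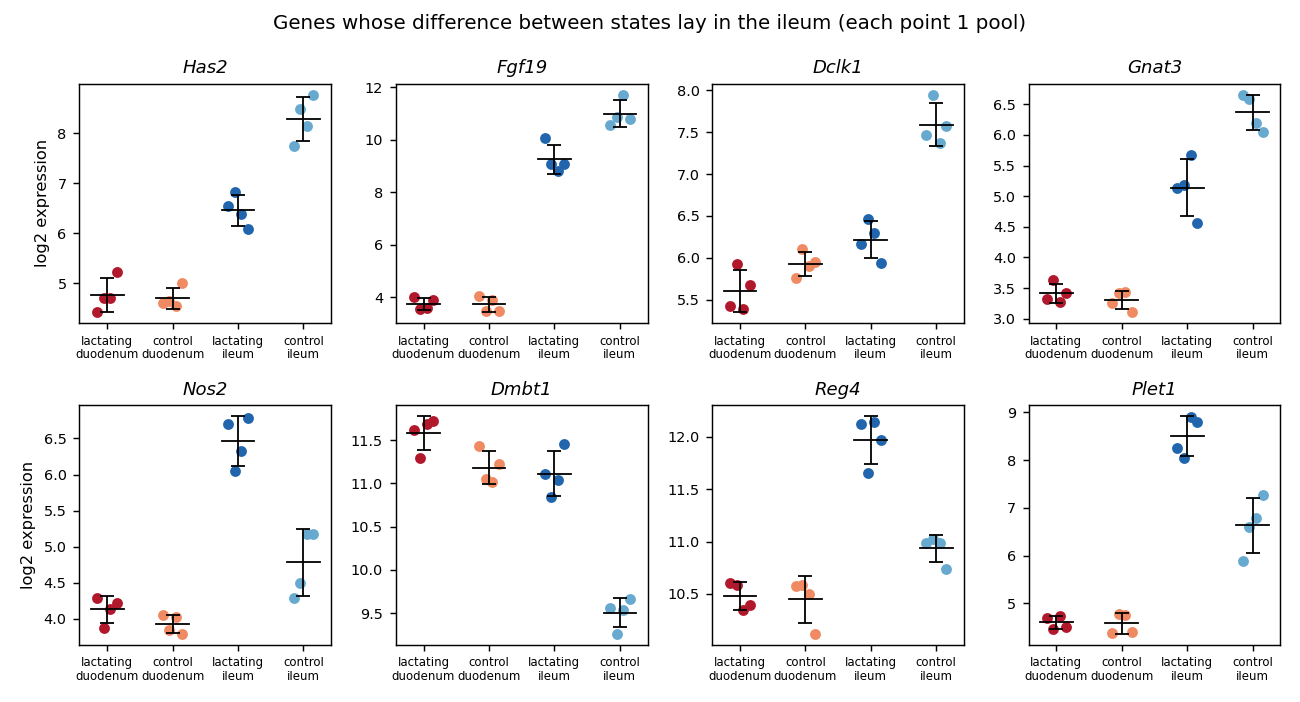
Log2 expression of 8 called genes in the 4 groups, each point 1 pool, with the mean (line) and SD (bars). Has2, Fgf19, Dclk1 and Gnat3 lie lower in lactating than in control ileum, Nos2, Dmbt1, Reg4 and Plet1 higher, and the duodenal groups lie close together.

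Tuft cells are rare chemosensory cells of the epithelium, and 2 genes that define them were called. Dclk1, a kinase of tuft cells, was at 5.42, 5.93, 5.39 and 5.68 in lactating duodenum and at 5.76, 6.10, 5.90 and 5.95 in control duodenum. The ileal values were 6.17, 6.46, 6.29 and 5.94 in lactating and 7.47, 7.95, 7.37 and 7.57 in control pools, and only there were the states apart. The contrast was 1.05 ± 0.18 (adjusted p = 0.0234; passed in 2 of 8 fits without 1 pool, without lactating pools 2 and 3, up to 0.111). Gnat3, the taste G protein gustducin, lay between 3.11 and 3.63 in the duodenum, below the array medians of 4.74 to 4.87, where a fall could hardly be seen. It was at 5.14, 5.19, 5.68 and 4.56 in lactating ileum and at 6.65, 6.58, 6.20 and 6.05 in control ileum. Its contrast was 1.33 ± 0.25 (adjusted p = 0.0299; passed without lactating pool 3 only, up to 0.153; 0.094 with the replicate block).

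Further tuft cell genes were looked up after these values were seen. Of 35 textbook tuft cell genes 26 were measured, and 0 were called in the duodenum in either direction, while in the ileum 9 were called lower and 0 higher. Over all clusters the share called was 0.417% in the duodenum, and in the ileum 0.448% lower and 0.355% higher. With the replicate block, Trpm5 (-0.45, adjusted p = 0.0218) and Alox5ap (-0.44, adjusted p = 0.0307) were called lower in the duodenum as well. The difference lay above 0 for 9 of the 26 in the duodenum and for 3 in the ileum. At an unadjusted p under 0.05 (limma), 8 passed in the duodenum and 17 in the ileum. The share of all clusters at this unadjusted threshold was not taken, here or for the other lists. The contrast was called for Dclk1 and Gnat3, and 7 passed without adjustment. Their median difference was -0.16 in the duodenum and -0.42 in the ileum, against 0.04 and 0.02 over all clusters. The 7 other genes called in the ileum were Sh2d7 (-1.51), Sucnr1, the succinate receptor (-1.62), Rgs13 (-1.03), Spib (-1.01), Bmx (-0.95), Trpm5, the taste cation channel (-0.94), and Pou2f3, the factor that specifies the lineage (-0.75). Of these Spib is also made by B cells, whose genes were not called in either segment (limma, 0 of 12 measured, and at an unadjusted p under 0.05 0 in the duodenum and 2 in the ileum). Averaged over the 26 tuft cell genes, the duodenum stood at 5.085 to 5.387 in lactating and 5.254 to 5.521 in control pools, with overlap, and the ileum at 5.439, 5.564, 5.624 and 5.488 in lactating and 5.977, 6.234, 6.036 and 6.057 in control pools, without overlap.

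Some defence genes rose in the ileum. Of 18 measured Paneth and mucosal defence genes the contrast was called lower for 3 and higher for 0, and in the ileum 4 rose. Dmbt1, a mucosal scavenger protein, was at 11.62, 11.29, 11.69 and 11.72 in lactating duodenum and at 11.43, 11.05, 11.02 and 11.23 in control duodenum. In the ileum it was at 11.11, 10.84, 11.04 and 11.46 in lactating and at 9.56, 9.26, 9.54 and 9.66 in control pools. The lactating ileal level came up to the duodenal range, and the contrast was -1.21 ± 0.17 (adjusted p = 0.00456; 0.0192 with the replicate block). With that block Dmbt1 was also called in the duodenum (0.40, adjusted p = 0.0467). Nos2, the inducible nitric oxide synthase, lay between 3.79 and 4.29 in the duodenum, below the array medians of 4.74 to 4.87. It was at 6.70, 6.05, 6.32 and 6.79 in lactating ileum and at 4.28, 4.5, 5.17 and 5.17 in control ileum. Its contrast was -1.48 ± 0.25 (adjusted p = 0.0203; 3 of 8 fits without 1 pool, up to 0.10; 0.0957 with the replicate block).

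Reg4, a secreted lectin of the Reg family, was at 12.12, 11.65, 12.14 and 11.97 in lactating ileum and at 10.99, 11.02, 10.99 and 10.74 in control ileum, with a contrast of -1.0 ± 0.16 (adjusted p = 0.013; 2 of 8 fits without 1 pool, up to 0.0849; 0.0669 with the replicate block). Reg1a differed by 1.36 in the duodenum (adjusted p = 0.0839) and rose by 2.26 in the ileum (adjusted p = 0.0032), and its contrast was not called. Reg3b, a bactericidal lectin, was at 13.01, 12.39, 13.38 and 12.18 in lactating duodenum and at 12.62, 9.42, 9.87 and 8.75 in control duodenum, where control pool 1 lay within the lactating range. In the ileum it stood at 13.68 to 13.96 in lactating and 12.62 to 13.40 in control pools. Its contrast of 1.81 was not called (adjusted p = 0.51). Markers of lymphocytes stood beside these genes as follows: limma called 0 of 35 measured T cell genes in the contrast and in either segment, with 2 for the contrast, 6 in the duodenum and 6 in the ileum at an unadjusted p under 0.05. The difference lay above 0 for 3 of the 35 in the duodenum and for 7 in the ileum, with medians of -0.19 and -0.14. Among those above 0, Gzmb (1.04, adjusted p = 0.0843) and Gzma (0.91, adjusted p = 0.135), granzymes of cytotoxic lymphocytes, were not called in the ileum. S100a9, a calgranulin of neutrophils, rose there (1.22, adjusted p = 0.0296), the 1 called of 22 measured myeloid and mast cell genes, and its contrast of -1.44 was not called (adjusted p = 0.0683). Of 6 measured goblet cell genes Spink4 rose in the ileum (1.46, adjusted p = 0.00607), with a contrast of -0.97 that was not called (adjusted p = 0.287). The states did not overlap for 4 of the 6 in the ileum and for 2 in the duodenum, against 7.51% and 5.78% of all clusters. All 6 had the higher mean in lactating pools in both segments. The mean level of the 6 genes was 12.29 to 12.56 in lactating and 11.80 to 11.95 in control ileum, and 10.84 to 11.13 in lactating and 10.55 to 10.92 in control duodenum. The part of these cells in the defence genes was not tested.

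A few genes outside the naming rule were picked after their values were seen. Plet1, an epithelial surface protein, lay between 4.38 and 4.78 in the duodenum, and was at 8.26, 8.05, 8.91 and 8.79 in lactating ileum and at 5.89, 6.59, 6.79 and 7.26 in control ileum. Its contrast was -1.85 ± 0.30 (adjusted p = 0.0158; 3 of 8 fits without 1 pool, up to 0.102; 0.0669 with the replicate block). Testin did not pass 3.2 on any duodenal array, and was at 5.0, 4.99, 5.05 and 4.74 in lactating ileum and at 3.30, 3.73, 3.14 and 3.27 in control ileum. With a contrast of -1.62 ± 0.18 (adjusted p = 0.00215) it kept its call in all 8 fits without 1 pool and with the replicate block (0.0311). Timd2, of the Tim family, also rose in the ileum (contrast -0.93), and Nell1 (0.76), Ldlrad3 (0.84) and Asap1 (0.71) fell there. Timd2 passed in 4 of 8 fits without 1 pool, Ldlrad3 only without lactating pool 3, and Nell1 and Asap1 in 0 (up to 0.164 and 0.153). The replicate block gave an adjusted p of 0.129 for Timd2 and 0.231 for Nell1. In the duodenum Plet1, Testin, Timd2 and Nell1 did not pass 4.87, the highest array median. Also in this set were Ecel1, Bcl2l10 and Nrg4, given above.

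For cholesterol synthesis and mitosis genes no contrast was called. Of 16 measured cholesterol synthesis genes, 7 rose in the duodenum and 5 in the ileum, and limma called the contrast for 0 (1 at an unadjusted p under 0.05), with medians of 0.73 in the duodenum, 0.59 in the ileum and 0.15 for the contrast. Cyp51, a demethylase of the pathway, rose by 1.10 in the duodenum and 0.90 in the ileum, and Sqle, which makes squalene epoxide, by 1.18 and 0.74. Insig1, a sterol sensor, was called higher in the duodenum (1.26), while its ileal difference of 0.53 missed the threshold (adjusted p = 0.0637). The ileal groups of Insig1 did not overlap, with 11.82 to 12.27 in lactating and 11.27 to 11.74 in control pools. With the replicate block its ileal rise was called (adjusted p = 0.0177). The paper reports a significant increase of Insig1 in every part of the small intestine. In the main fit the contrast of 0.73 for Insig1 was not called (adjusted p = 0.068). Mitosis and DNA replication genes had medians of 0.45 in the duodenum and 0.50 in the ileum. Of 28 measured, 1 rose in the duodenum and 2 in the ileum (21 and 18 at an unadjusted p under 0.05), and limma called the contrast for 0 (also 0 at an unadjusted p under 0.05). Klf9, a target of thyroid and glucocorticoid hormones, fell in both segments, by 0.76 in the duodenum and 1.06 in the ileum.

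In the jejunum, which lies between both segments and came from the same rats, lactating minus control was called for 157 clusters in the fit to all 32 arrays (0.808%; 67 higher, 0.345%, and 90 lower, 0.463%). Trpv6 (2.86), Slc34a2 (1.62), Slc11a2 (1.10) and Ecel1 (2.25) rose there, and so did Dmbt1 (1.35) and S100g (2.15), which rose in the ileum. Gnat3 (-1.17), Dclk1 (-0.69), Trpm5 (-0.61), Ugt2b7 (-1.13) and Nrg4 (-0.97) fell there. Has2 (0.02), Fgf19 (0.39), Plet1 (0.03) and Trpm6 (0.19) were not called, nor was Pnliprp1 (0.08). These values were not tested against those of duodenum or ileum.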

How the data were processed

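RNA of duodenum and ileum of lactating and control rats was measured in 4 pools per state, 16 arrays. The deposited values are log2 expression from Affymetrix Expression Console, where RMA corrected background, quantile normalized the arrays and summarised probes per gene. The table of 19434 clusters was used unchanged. Tool versions: not given in the sources used here. The medians of the arrays ran between 4.74 and 4.87. Precision rests on signal over background and on how many arrays there are.

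Clusters were fitted with 4 group means and a random term for the pool in limma 3.58.1 under R 4.3.3, with statmod 1.5.0. The consensus correlation was 0.251, and empirical Bayes moderation had 3.05 prior degrees of freedom. P-values were adjusted by Benjamini-Hochberg. The study's model over all 32 arrays was an alternative, as were other normalizations, filters, array weights, other moderation, within-pool differences and leaving out each pool.

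The labels number the pools 1 to 4 in both states. Pool means of the same number correlated at 0.283 to 0.709 and of different number at -0.431 to 0.14, so the numbers were taken to pair the pools in the fits with a replicate block. The main fit, with 4 group means and the random term for the pool, did not use this pairing across states. Within-pool differences of the same number correlated at -0.051 to 0.067.

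Clusters were named where the platform table gives exactly 1 symbol (13327; 620 had several and 5487 none), with the cluster of highest mean for a symbol with several (13215 genes). Named were the 15 largest contrasts in each direction among called genes, up to 4 called members of each list, region markers, and uncalled list members where said. The comparison, the lists and the members were chosen with earlier results of these data known. Counts of list members at an unadjusted p under 0.05 were not set against a share of all clusters. Tables and figures were made in Python. Promoter sequences are from RefSeq (GRCr8).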

Additional observations from a re-analysis of the deposited data

Results flagged for a closer look

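The effect of lactation differed between duodenum and ileum for 52 clusters by the limma test of the difference itself.

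In 11 gene and group pairs 1 pool lay far from the other 3 of its group by Dixon's criterion, which chance meets in about 1 in 20 groups, and 184 groups were examined. In lactating duodenum this was Bcl2l10 in pool 2 (3.97). In control duodenum these were Cpa1 in pool 2 (10.95), Ecel1 in pool 3 (5.16) and Slc30a2 in pool 2 (6.89). In lactating ileum these were Cela1 in pool 4 (6.23), Gp2 in pool 3 (3.18), Slc52a3 in pool 4 (8.08) and Trpv6 in pool 3 (5.30). In control ileum these were Pla2g1b in pool 1 (3.51), Reg4 in pool 4 (10.74) and Slc7a15 in pool 2 (9.18). The high acinar values of lactating duodenal pool 2 did not meet the criterion.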

How the results depend on the processing

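None of the 46 named genes changed sign under any of the alternatives run. The count of 52 clusters became 17 with the replicate block, 3 with the replicate block within each segment, 16 without the pool as a block, 16 with within-pool differences, 85 among the 7709 clusters with a group mean of 6 or more and 467 at an unadjusted p under 0.01, and 24 to 55 without 1 pool. Calls were kept by 14 named genes with the replicate block, 13 with within-pool differences, 39 with all 32 arrays, 38 with the study's model and 16 in all 8 fits without 1 pool. In the duodenum the count of 81 became 125 with all 32 arrays, 498 with the replicate block, 312 with it within each segment, 157 with array weights and 639 at the unadjusted threshold, and 50 to 84 without 1 pool. In the ileum the count of 156 became 249 with all 32 arrays, 1128 and 625 with the 2 replicate blocks, 245 with quantile normalization over the 16 arrays, 246 within each segment and 955 at the unadjusted threshold, and 46 to 157 without 1 pool. Quantile normalization turned the duodenal split to 39 of 97 higher over the 16 arrays and 40 of 99 within each segment, against 44 of 81. The cause of these shifts was not tested. The number of pools limits the precision.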
